A study of Mus musculus with 4 samples.

Results

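The 31 genes described here encode the enzymes that build cholesterol, the proteins that sense sterols in the endoplasmic reticulum, and the receptors and transporters that answer to a surplus of sterol. They were named by symbol from the known pathway, with no threshold on their values, and all 31 were found among the 20952 genes measured. By role they comprise 7 enzymes from acetyl-CoA to farnesyl diphosphate, 3 that make squalene and lanosterol, 9 that turn lanosterol into cholesterol, 1 enzyme of the side branch to geranylgeranyl diphosphate, 5 genes of sterol sensing, 1 sterol carrier, and 5 liver X receptor genes and targets. The first 3 of these classes are called the 19 synthesis enzymes below.

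The arrays measured total RNA of 3T3-L1 cells, a mouse fibroblast line that turns into fat cells when given a hormone mixture. Knockdown cells, labelled LAMP2A- with the genotype lamp2a-, were set against control cells. LAMP2A is the lysosomal membrane receptor of chaperone-mediated autophagy, and how it was knocked down in this line was not stated in the labels. Each kind of cell was collected at confluence (day 0, before induction) and at day 2, after growth in 160 nM insulin, 250 nM dexamethasone and 0.5 mM 1-methyl-3-isobutylxanthine, with 10% fetal bovine serum in the medium of all 4 groups. The 4 groups are therefore knockdown day 0, control day 0, knockdown day 2 and control day 2. Each was measured on 1 array, so the differences below are descriptions of single cultures without a test. No day 2 culture without the hormone mixture was analysed, so time in culture and induction cannot be told apart.

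Cholesterol is built from acetyl-CoA through mevalonate, isoprenoid diphosphates, squalene and lanosterol. The transcription factors SREBP1 and SREBP2, encoded by Srebf1 and Srebf2, are made as precursors in the membrane of the endoplasmic reticulum. The escort protein SCAP carries them to the Golgi for cleavage when sterols are scarce, and INSIG1 and INSIG2 hold SCAP back when sterols are plentiful. Most synthesis enzymes and Insig1 are SREBP2 targets, and the level of their transcripts is a common readout of this loop. The liver X receptors LXRα and LXRβ, encoded by Nr1h3 and Nr1h2, bind oxysterols and induce the cholesterol exporters Abca1 and Abcg1, the ubiquitin ligase gene Mylip and Srebf1. Fat cells are a large store of free cholesterol, which builds up along with the lipid droplet.

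The promoters of synthesis genes classically combine a sterol regulatory element with sites for the cofactors NF-Y and SP1. RefSeq windows of GRCm38.p6, which run from 250 bases before to 50 bases after each start, were found for 26 of the 31 genes, 35 windows in all; Abcg1, Fdft1, Fdps, Sqle and Stard4 are not among them. The letters CCAAT of the NF-Y box, searched on both strands, were present in 22 of the 35 windows (62.9%) and in 15 of the 19 windows of synthesis enzymes (78.9%), against 12289 of all 32851 windows in the table (37.4%). The letters GGGCGG of the SP1 box, also on both strands, were present in 74.3% of the 35 windows and 84.2% of the synthesis enzyme windows, against 35.7% of all windows. No GGGCGG match overlapped a CCAAT match in these genes. The letters TCACNCCAC of the sterol regulatory element were present in 1 gene's window, that of Hmgcs1 (2.86% of the 35 windows, against 1.24% of all). The longer decamer form of that element and the direct repeat bound by liver X receptors were in none of the 35 windows. Over all windows their shares were 0.0913% and 0.0152%, so low that absence from 35 windows cannot set these genes apart from others. All the counts above are matches of letters and not measured binding sites. Shown here are the 180 bases before the start for Hmgcs1, for the 5 synthesis genes with a window that were at least 2-fold lower at day 2 than at day 0 in knockdown cells, and for Hsd17b7, the synthesis gene that was at least 2-fold higher. Capitals mark CCAAT in either orientation and the sterol regulatory element letters.
Hmgcs1, chr13:119690171-119690350, plus strand: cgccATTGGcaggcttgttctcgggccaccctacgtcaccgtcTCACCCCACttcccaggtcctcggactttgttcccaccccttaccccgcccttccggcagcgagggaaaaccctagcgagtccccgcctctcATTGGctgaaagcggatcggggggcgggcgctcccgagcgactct
Idi1, chr13:8885426-8885605, plus strand: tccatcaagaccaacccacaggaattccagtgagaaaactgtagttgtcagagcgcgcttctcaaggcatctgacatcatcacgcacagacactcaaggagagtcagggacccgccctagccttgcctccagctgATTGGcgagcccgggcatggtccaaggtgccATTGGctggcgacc
Lss, chr10:76531425-76531604, plus strand: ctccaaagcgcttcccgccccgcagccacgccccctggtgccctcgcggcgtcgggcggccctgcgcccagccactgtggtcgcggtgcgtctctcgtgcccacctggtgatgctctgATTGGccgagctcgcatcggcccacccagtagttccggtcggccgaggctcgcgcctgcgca
Msmo1, chr8:64733579-64733758, minus strand: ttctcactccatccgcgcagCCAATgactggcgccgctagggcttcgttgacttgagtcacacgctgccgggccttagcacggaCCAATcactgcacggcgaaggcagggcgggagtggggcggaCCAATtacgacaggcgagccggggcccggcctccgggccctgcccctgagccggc
Nsdhl, chrX:72918341-72918520, plus strand: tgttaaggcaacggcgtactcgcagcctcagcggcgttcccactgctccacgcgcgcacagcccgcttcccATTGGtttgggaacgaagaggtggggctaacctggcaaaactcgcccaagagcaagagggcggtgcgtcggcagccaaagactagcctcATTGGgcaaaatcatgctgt
Sc5d, chr9:42264301-42264480, minus strand: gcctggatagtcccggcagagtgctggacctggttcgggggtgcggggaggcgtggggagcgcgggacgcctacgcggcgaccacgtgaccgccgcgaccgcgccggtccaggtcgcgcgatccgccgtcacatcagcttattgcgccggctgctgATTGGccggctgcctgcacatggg
Hsd17b7, chr1:169969206-169969385, minus strand: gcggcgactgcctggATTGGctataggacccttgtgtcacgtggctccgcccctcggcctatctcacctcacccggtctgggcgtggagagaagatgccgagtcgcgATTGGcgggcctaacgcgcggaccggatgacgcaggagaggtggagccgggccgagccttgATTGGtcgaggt

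Values below are scaled signals, in which the 75th percentile of each array is set to 100, and a difference is called where it reached 2-fold. A level belongs to 1 probe and is never set against the level of another gene's probe. Well above the array's background were 31 and 30 of the 31 genes in knockdown cells at days 0 and 2, against 31 and 31 in control cells; the exception was Abcg1 in knockdown cells at day 2. Bright genes, 11391 in all and 29 of the 31, are those above the 95th percentile of 1072 olfactory receptor genes. These cells are not known to use olfactory receptors, and Srebf1 and Abcg1 were below that percentile. Before scaling, the median signal of the olfactory receptor genes was 39.8 in knockdown and 11.2 in control cells at day 0. At day 2 it was 23.6 in knockdown and 28.7 in control cells. A fold of a dim gene against the control day 0 array may therefore hold part of that lower floor, which was not tested. Probes printed 10 times on each array put the spread of a log2 ratio from spot to spot at 0.065 to 0.075 (SD) for bright probes and at 0.31 to 0.41 for dim ones, which covers printing and scanning but not cultures. Of the spots on each array, 88.6% and 78.7% were well above background in knockdown cells at days 0 and 2, against 67.4% and 84.2% in control cells. The control day 0 array lay on slide 1 and the other 3 on slide 2, so in every comparison that uses control cells at day 0 slide and group cannot be told apart. One of the 2 Lamp2 probes read 480 in knockdown and 1981 in control cells at day 0 and 326 in knockdown and 1149 in control cells at day 2, or 4.13- and 3.52-fold lower in knockdown cells; the other read 1.28- and 1.09-fold lower. All 8 fibroblast and preadipocyte markers were well above background on all 4 arrays. Of them, Thy1 was lower by 2.97-fold in the knockdown culture of day 0, and Pdgfrb was lower by 2.07-fold in that of day 2 and fell 3.94-fold in knockdown and 2.81-fold in control cells over time. Their part in the results below was not tested.

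In knockdown cells 7 of the 19 synthesis enzymes (36.8%) were at least 2-fold lower at day 2 than at day 0. At least 2-fold higher was 1 of the 19 (5.26%). Over the whole set 9 of the 31 genes (29.0%) were at least 2-fold lower at day 2 (Fdft1, Fdps, Idi1, Insig1, Lss, Msmo1, Nr1h3, Nsdhl and Sc5d) and 3 (9.68%) were at least 2-fold higher (Abca1, Hsd17b7 and Srebf1). The background in that comparison was 9.24% of bright genes lower and 6.17% higher, and 9.09% and 5.00% of all genes compared. In control cells 3 genes (9.68%) were at least 2-fold lower at day 2 (Fdft1, Fdps and Insig1) and 4 (12.9%) were at least 2-fold higher (Abca1, Abcg1, Hsd17b7 and Srebf1), where the background was 7.67% of bright genes lower and 7.68% higher, and 8.08% and 20.2% of all genes. The median log2 ratio of the 31 genes, day 2 over day 0, was -0.60 in knockdown cells and -0.31 in control cells. For bright genes it was 0.08 in knockdown cells and 0.03 in control cells. The 2 comparisons share no array, but the control one spans both slides.

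Knockdown cells differed from control cells in few of these genes when each day was taken alone. At day 0, 1 gene (3.23%) was at least 2-fold higher in knockdown cells, Cyp51, and 0 were at least 2-fold lower. The background was 5.64% of bright genes higher and 3.05% lower, and 18.5% and 4.17% of all genes compared. At day 2, Abca1 was at least 2-fold higher and Abcg1 at least 2-fold lower in knockdown cells, against 3.01% higher and 3.63% lower among bright genes and 2.89% and 4.13% among all genes. Each single gene is 3.23% of the 31, so at both days the share past 2-fold was near or below its background. The knockdown over control ratio at day 2 was at least 2-fold below that at day 0 for 1 of the 30 genes measured on all 4 arrays, Idi1, and at least 2-fold above it for 0, against 6.73% and 2.60% of bright genes and 17.0% and 2.85% of all genes compared.

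**Figure D1:**
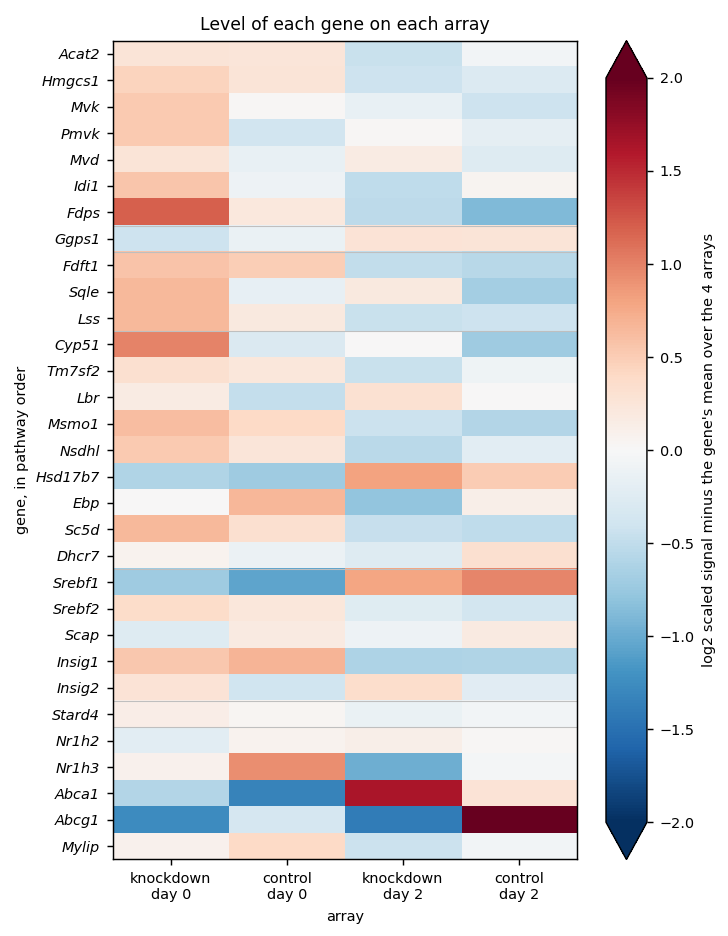
Level of each of the 31 genes (rows, in pathway order, with lines between roles) on the 4 arrays (columns), as the log2 scaled signal minus that gene's mean over the arrays. Red is above and blue below the gene's own mean, and colours stop at 2 log2 units; most synthesis enzymes are redder on the knockdown day 0 array and bluer on both day 2 arrays, with Hsd17b7, Srebf1 and Abca1 bluer on the day 0 arrays.

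The direction of the 19 synthesis enzymes was more uniform than the number past 2-fold. At day 0, 18 of the 19 had a log2 ratio of knockdown over control above 0 (94.7%), with a median of 0.32, and Ebp was the 1 below 0. Of bright genes 48.3% were above 0 at day 0, with a median of -0.02, and of all genes compared 58.4%, with a median of 0.12. Of the 11 housekeeping genes 9 were above 0, with a median of 0.21. At day 2, 11 of the 19 were above 0 (57.9%), with a median of 0.05, against 55.1% of bright genes and 48.2% of all genes compared. Under the other scalings and filters 17 or 18 of the 19 stayed above 0 at day 0, and 9 to 12 at day 2. From day 0 to day 2, 17 of the 19 had a ratio below 0 in knockdown cells and 14 of the 19 in control cells, with medians of -0.81 in knockdown cells and -0.44 in control cells. Below 0 were 43.4% of bright genes in knockdown cells and 47.7% in control cells, and 48.9% and 36.4% of all genes compared. The counts of 17 and 14 were the same under each of 9 alternatives. The filters on dim probes among them could not change any count here, since all 19 were well above background on every array. The day 0 ratio and the control time course share the control day 0 array, and the day 0 ratio and the knockdown time course share the knockdown day 0 array.

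**Figure D2:**
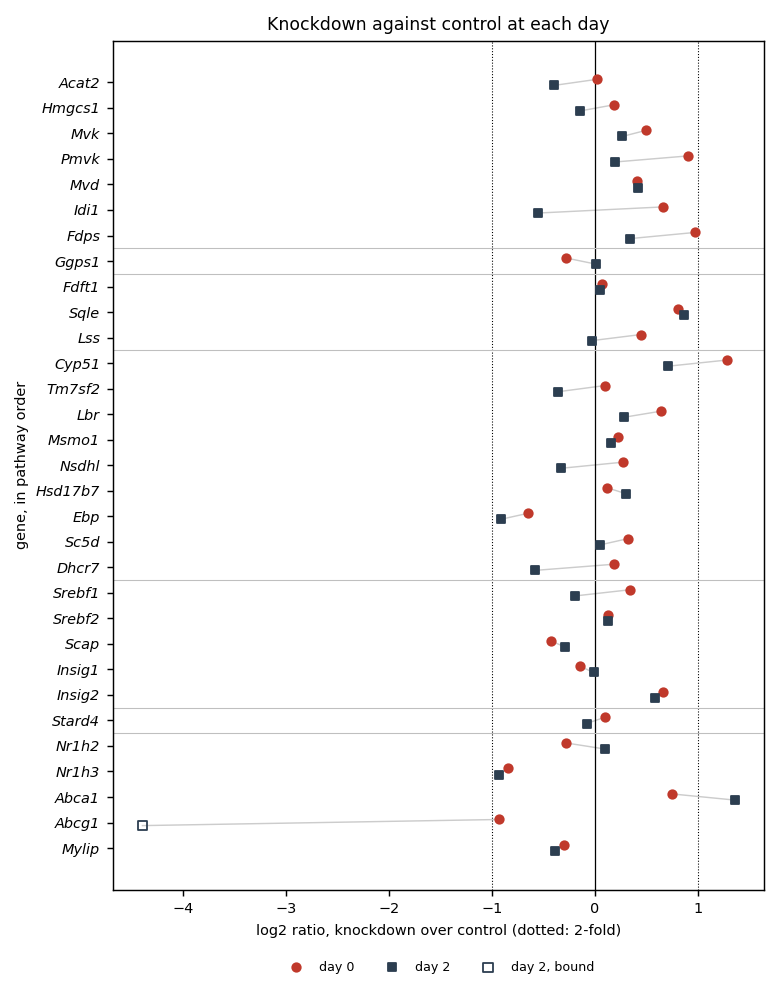
Log2 ratio of knockdown over control cells for each gene at day 0 (red circles) and day 2 (dark squares), joined by a grey line; the open square is a bound, and dotted lines stand at 2-fold. All synthesis enzymes but Ebp lie right of 0 at day 0, while at day 2 they lie on both sides; Cyp51 at day 0 and Abca1 and Abcg1 at day 2 are past a dotted line.

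The enzymes of the first stage make the isoprenoid building block and join it to farnesyl diphosphate. Acat2, the cytosolic thiolase that condenses acetyl-CoA, had scaled signals of 66.8 in knockdown and 65.8 in control cells at day 0, and 41.0 in knockdown and 54.0 in control cells at day 2. Hmgcs1, the cytosolic HMG-CoA synthase whose window is the one with the sterol regulatory element letters, had 2948 and 1628 in knockdown cells at days 0 and 2, against 2595 and 1798 in control cells. Both were lower at day 2 than at day 0 in each kind of cell by less than 2-fold, Hmgcs1 by 1.81-fold in knockdown and 1.44-fold in control cells.

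Mvk, mevalonate kinase, read 1976 in knockdown and 1399 in control cells at day 0, and 1239.6 in knockdown and 1031 in control cells at day 2. Pmvk, the phosphomevalonate kinase of the next step, read 1926 in knockdown and 1025 in control cells at day 0, and 1355 in knockdown and 1184 in control cells at day 2. The Pmvk signal at day 0 was 1.88-fold that of control cells, just under the call, and at day 2 it was 1.14-fold, so the day 0 array of knockdown cells stood above the other 3. The other Pmvk probe gave a log2 ratio of 1.00 at day 0, just past the call. Mvd, the decarboxylase that yields isopentenyl diphosphate, read 199 and 187 in knockdown cells at days 0 and 2, against 150.0 and 139 in control cells. Knockdown cells were higher in Mvd by nearly the same amount at both days, 1.33-fold at day 0 and 1.34-fold at day 2, and time made little difference.

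Idi1, the isomerase that makes dimethylallyl diphosphate, was the gene whose knockdown ratio differed most between days among the 30 genes compared. Its scaled signal was 1389 in knockdown and 879.7 in control cells at day 0, and 664 in knockdown and 975 in control cells at day 2. At day 0 Idi1 in knockdown cells exceeded the control level 1.58-fold, and at day 2 it was 1.47-fold lower. Between the days it fell 2.09-fold in knockdown cells, while in control cells the log2 ratio was 0.15. The difference between the 2 log2 ratios was -1.21, with a spot-to-spot SD of 0.10 for bright probes, and it ran from -1.32 to -1.13 under 9 alternatives. Idi1 has a close paralogue, Idi2, and how far its probe tells the 2 apart was not tested.

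Fdps, farnesyl diphosphate synthase, had the largest fall of any synthesis enzyme. Its scaled signal was 7356 in knockdown and 3747 in control cells at day 0, and 2232 in knockdown and 1757 in control cells at day 2. Fdps fell 3.30-fold in knockdown and 2.13-fold in control cells between day 0 and day 2. At day 0 it was 1.96-fold higher in knockdown cells, just short of the call, and it passed 2-fold in 3 of the 9 alternatives. On the side branch, Ggps1, which makes geranylgeranyl diphosphate for protein prenylation, read 249.9 and 402 in knockdown cells at days 0 and 2, against 303 and 399 in control cells. Ggps1 went against the synthesis enzymes in both kinds of cell, with log2 ratios of 0.68 in knockdown and 0.39 in control cells, but its other probe gave -0.06 in knockdown cells.

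Squalene and lanosterol are made by Fdft1, Sqle and Lss. Fdft1, squalene synthase, read 456 in knockdown and 434 in control cells at day 0, and 219 in knockdown and 211 in control cells at day 2. By this brighter probe Fdft1 fell 2.09-fold in knockdown and 2.06-fold in control cells. The gene's other probe read only 2.80 and 2.22 in knockdown cells at days 0 and 2, against 2.75 and 2.95 in control cells. Its log2 ratios were -0.34 in knockdown and 0.10 in control cells. Both are within the spot-to-spot SD of dim probes, 0.35 and 0.41, so that probe cannot decide whether Fdft1 fell. Lss, lanosterol synthase, read 234 and 110.2 in knockdown cells at days 0 and 2, against 172 and 113 in control cells. Lss fell 2.12-fold in knockdown cells and was 1.52-fold lower at day 2 in control cells, and the day 2 levels of the 2 kinds of cell were 1.02-fold apart.

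Sqle, squalene epoxidase, a rate-limiting enzyme of the pathway, read 3805 in knockdown and 2177 in control cells at day 0, and 2775 in knockdown and 1526 in control cells at day 2. Knockdown cells were higher by 1.75-fold at day 0 and 1.82-fold at day 2, both under the call, and day 2 lay 1.37-fold below day 0 in knockdown and 1.43-fold below it in control cells. The day 2 ratio rests on 2 arrays of the same slide and ran from 0.77 to 0.87 (log2) under the alternatives.

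The 9 genes after lanosterol include the 1 synthesis enzyme called at day 0. Cyp51, the lanosterol 14α-demethylase, read 248 in knockdown and 102 in control cells at day 0, and 124 in knockdown and 75.7 in control cells at day 2. At day 0 Cyp51 was 2.43-fold higher in knockdown cells, with a log2 ratio of 1.28 that ran from 1.16 to 1.35 under 9 alternatives, and 1.64-fold higher at day 2. In knockdown cells it was 1.99-fold lower at day 2, just short of the call, and 1.35-fold lower in control cells. Tm7sf2 and Lbr both encode sterol C14 reductases, and Lbr is also the lamin B receptor of the inner nuclear membrane. Tm7sf2 read 262 and 155 in knockdown cells at days 0 and 2, against 246 and 198 in control cells. Lbr read 204 and 223 in knockdown cells at days 0 and 2, against 130.4 and 183 in control cells. Over time Tm7sf2 was 1.70-fold lower at day 2 in knockdown cells, whereas Lbr had a log2 ratio of 0.13, and neither passed 2-fold in any comparison.

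The C4 demethylation complex is built from Msmo1, Nsdhl and Hsd17b7, and its genes did not move together. Msmo1, the methyl sterol oxidase, read 4121 in knockdown and 3532 in control cells at day 0, and 1979.9 in knockdown and 1772 in control cells at day 2. Nsdhl, the decarboxylating dehydrogenase, read 252 in knockdown and 208 in control cells at day 0, and 121 in knockdown and 152 in control cells at day 2. Hsd17b7, the 3-ketosteroid reductase that closes the cycle, read 94.0 in knockdown and 86.7 in control cells at day 0, and 249.6 in knockdown and 202 in control cells at day 2.

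In knockdown cells Msmo1 and Nsdhl each fell 2.08-fold, while Hsd17b7 rose 2.65-fold. In control cells Hsd17b7 rose 2.32-fold, Msmo1 was 1.99-fold lower and Nsdhl 1.37-fold lower, the last 2 short of the call. The other Hsd17b7 probe gave log2 ratios of 1.17 in knockdown and 0.99 in control cells, and the other Nsdhl probe gave -0.65 in knockdown cells. The 180 bases before Hsd17b7 hold the NF-Y letters 3 times, as do those before Msmo1.

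Ebp, the sterol isomerase, was the synthesis enzyme that was lower in knockdown cells at both days. It read 1839 in knockdown and 2873 in control cells at day 0, and 1049 in knockdown and 1977 in control cells at day 2. Relative to control cells the level was lower by 1.56-fold at day 0 and by 1.88-fold at day 2, both under the call, and the day 2 ratio ran from -0.98 to -0.91 (log2) under the alternatives. Sc5d, the C5 desaturase, read 595 in knockdown and 477 in control cells at day 0, and 276 in knockdown and 266 in control cells at day 2. It fell 2.15-fold in knockdown cells, against 1.79-fold lower in control cells. Dhcr7, a reductase that yields cholesterol, read 136 and 109 in knockdown cells at days 0 and 2, against 119.6 and 162 in control cells. At day 2 Dhcr7 was 1.49-fold lower in knockdown cells, and its log2 ratio over time was -0.32 in knockdown and 0.44 in control cells.

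**Figure D3:**
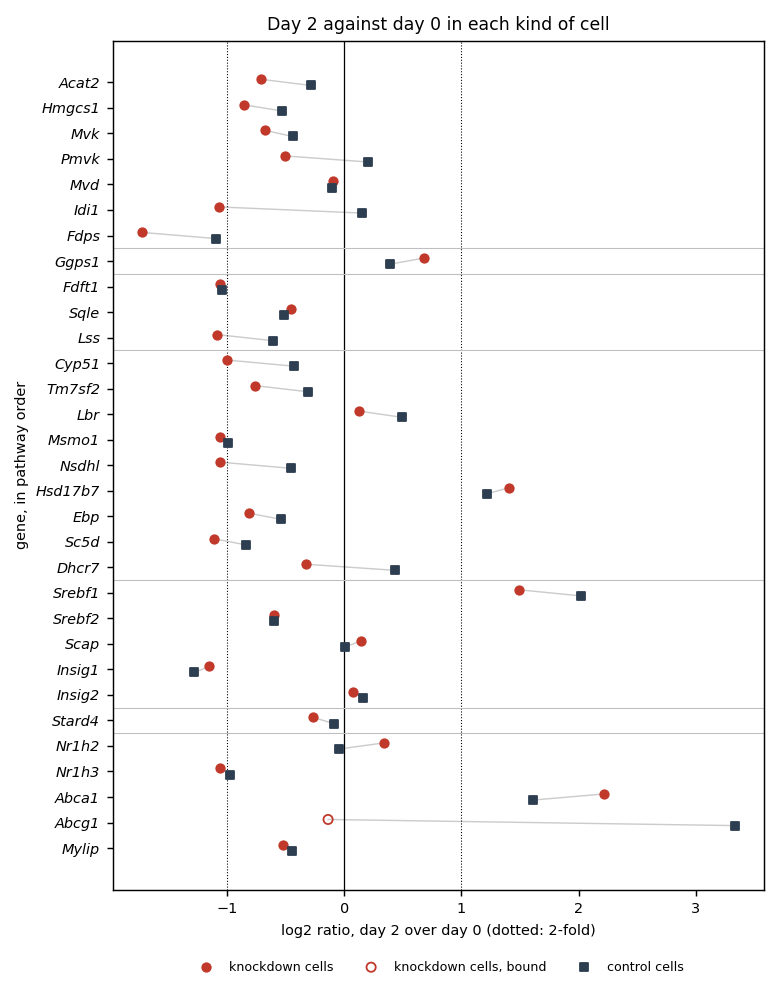
Log2 ratio of day 2 over day 0 for each gene in knockdown cells (red circles) and control cells (dark squares), joined by a grey line; the open circle is a bound, and dotted lines stand at 2-fold. Most synthesis enzymes lie left of 0 in both kinds of cell and further left in knockdown cells, Hsd17b7 lies past 2-fold on the right in both, and Abcg1 has the widest gap.

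Of the 5 sensing genes, Insig1 fell and Srebf1 rose in both kinds of cell with time, and none differed 2-fold between knockdown and control cells at either day. Insig1, an SREBP2 target and the inducible arm of the feedback loop, read 47.0 in knockdown and 51.8 in control cells at day 0, and 21.2 in knockdown and 21.4 in control cells at day 2. It fell 2.22-fold in knockdown and 2.42-fold in control cells, and the 2 kinds of cell were 1.01-fold apart at day 2. Insig2, the partner that is not induced by SREBP2, read 1136 and 1197 in knockdown cells at days 0 and 2, against 715 and 799.6 in control cells. Insig2 was higher in knockdown cells by 1.59-fold at day 0 and 1.5-fold at day 2, under the call, and hardly moved with time.

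Srebf2 read 193 in knockdown and 177 in control cells at day 0, and 127 in knockdown and 117 in control cells at day 2. The 2 kinds of cell kept the same small gap, 1.09-fold at day 0 and 1.09-fold at day 2. Over time Srebf2 was 1.52-fold lower in knockdown and 1.51-fold lower in control cells, under the call. Its other probe gave smaller log2 ratios over time, -0.14 in knockdown and -0.21 in control cells. Srebf1, a dim gene here, read 12.9 in knockdown and 10.2 in control cells at day 0, and 36.3 in knockdown and 41.3 in control cells at day 2. Srebf1 rose 2.81-fold in knockdown and 4.05-fold in control cells. Its knockdown over control log2 ratio was 0.34 at day 0, where the sign changed with the alternative (-0.37 to 0.41), and -0.19 at day 2. Scap read 1279 and 1416 in knockdown cells at days 0 and 2, against 1722 and 1731 in control cells, with knockdown cells lower by 1.35-fold at day 0 and by 1.22-fold at day 2. The sterol carrier Stard4, an SREBP2 target that moves cholesterol between membranes, read 321 and 267 in knockdown cells at days 0 and 2, against 300.0 and 282 in control cells. Its 2 probes disagreed in size: over time in knockdown cells the brighter gave a log2 ratio of -0.27 and the other -1.75.

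The exporters went opposite ways between knockdown and control cells at day 2, and were the 2 genes past 2-fold there. Abca1, which loads cholesterol onto apolipoprotein A-I, read 226 in knockdown and 134 in control cells at day 0, and 1051 in knockdown and 409 in control cells at day 2. At day 2 Abca1 was 2.57-fold higher in knockdown cells, and at day 0 it was 1.69-fold higher. It rose 4.65-fold in knockdown and 3.05-fold in control cells between the days, and the knockdown arrays were the higher at both days. The day 2 log2 ratio ran from 1.28 to 1.36 under 9 alternatives.

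Abcg1, which passes cholesterol on to high density lipoprotein, read 1.72 in knockdown and 3.27 in control cells at day 0, and 1.57 in knockdown and 32.9 in control cells at day 2. The control day 2 array stood far above the other 3, and the spot on the knockdown day 2 array was not well above background. At day 2 the knockdown level read 21.0-fold lower. That value rests on the measured signal of a spot not well above background, so the size of the difference is uncertain. Over 8 alternatives the log2 ratio or bound ran from -4.53 to -2.35. Between the days Abcg1 read 1.10-fold lower at day 2 in knockdown cells, a bound within the spot-to-spot spread of dim probes. In control cells it rose 10.1-fold, and there the log2 ratio ran from 1.87 to 3.40. A single probe, printed once per array, stands behind these values.

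Other transcripts were followed beside Abcg1. The 4 mature adipocyte markers, Adipoq, Plin1, Lep and Cfd, had summed scaled signals of 33.1 in knockdown and 10.6 in control cells at day 0, and 39.9 in knockdown and 72.2 in control cells at day 2. All 4 were at least 2-fold higher at day 2 than at day 0 in control cells and 0 of the 4 in knockdown cells. Of all genes compared, 20.2% were so in control cells and 5.00% in knockdown cells. All 4 markers were dim, and the olfactory receptor genes were lowest on the control day 0 array, where Adipoq and Cfd gave bounds. How far that lower floor has a part in the rise in control cells was not tested. Adipoq, Cfd and Plin1 were at least 2-fold lower at day 2 in the knockdown culture. Lep, which makes up most of the day 0 sums, read 25.5 in knockdown and 6.59 in control cells at day 0. At day 2 Lep read 28.3 in knockdown and 30.8 in control cells. It was thus 3.87-fold higher at day 0 in the knockdown culture and 1.09-fold apart at day 2, and the day 0 fold uses the array with the lower floor. Of these 4 markers, 2 were well above background on all 4 arrays, and each was on at least 1. The 3 macrophage and leukocyte markers matched summed to 282 in knockdown and 218 in control cells at day 0, and 192 in knockdown and 266 in control cells at day 2, nearly all of it Csf1r, with Ptprc and Adgre1 at 11.4 or below on every array. Whether a share of more mature cells has a part in the Abcg1 values was not tested; in RNA of whole cultures, fewer cells of a type and less RNA per cell cannot be told apart.

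Nr1h3, the gene of LXRα, read 41.7 in knockdown and 74.7 in control cells at day 0, and 20.03 in knockdown and 38.1 in control cells at day 2. Knockdown cells had less of it, by 1.79-fold at day 0 and by 1.90-fold at day 2, both under the call, and over time the gene fell 2.08-fold in knockdown cells and was 1.96-fold lower in control cells. Both of its probes gave log2 ratios below 0 in all 4 comparisons of 2 arrays. Nr1h2, the gene of LXRβ, read 891 and 1126 in knockdown cells at days 0 and 2, against 1082 and 1051 in control cells, and was within 1.26-fold in each comparison of 2 arrays. Mylip, whose ligase removes lipoprotein receptors from the cell surface, read 565 and 393 in knockdown cells at days 0 and 2, against 696 and 513 in control cells. Mylip in knockdown cells was lower by 1.23-fold at day 0 and by 1.31-fold at day 2. Its other probe, with a lower signal, gave log2 ratios of -0.87 at day 0 and -0.55 at day 2 for knockdown over control. Over time that probe gave -0.97 in knockdown and -1.29 in control cells, against -0.52 and -0.44 by the brighter probe. At day 2 the log2 ratio of knockdown over control was 1.36 for Abca1, 0.10 for Nr1h2, -0.39 for Mylip and -0.93 for Nr1h3. Below 0 there were 3 of the 5 genes of this class, against 44.9% of bright genes and 50.7% of all genes compared.

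**Figure D4:**
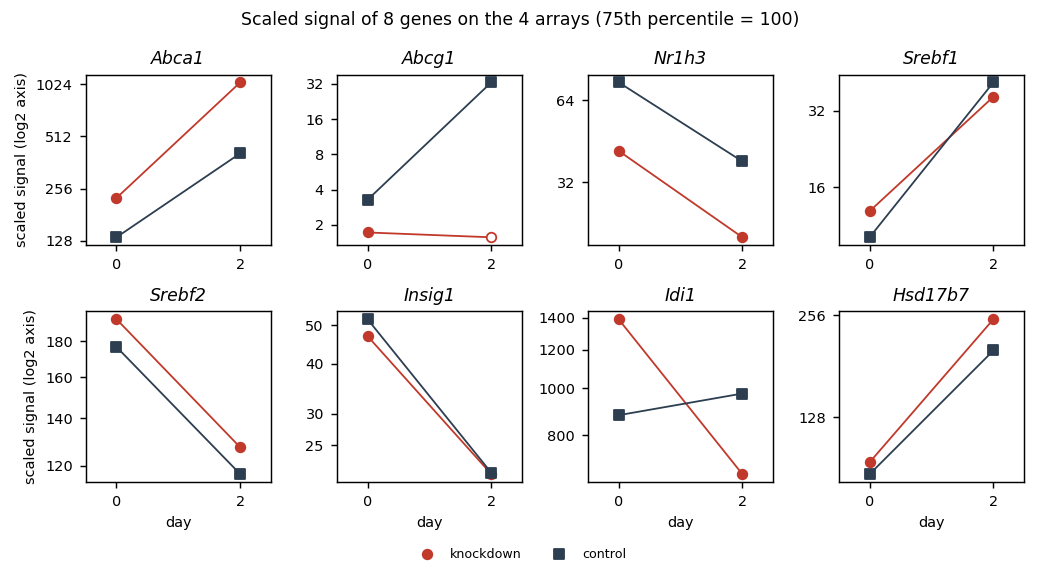
Scaled signal (log2 axis, 75th percentile of an array set to 100) of 8 genes at days 0 and 2 in knockdown cells (red circles) and control cells (dark squares), 1 array per point; the open circle is a spot not well above background, and each panel has its own range. Abca1 rises in both with knockdown cells above, Abcg1 rises in control cells with the knockdown day 2 spot not well above background, the Idi1 lines cross, and Srebf2 and Insig1 are lower at day 2 in both.

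Neighbouring pathways, listed by function and read on the same arrays, give the setting. The 9 genes of SREBP processing and sterol-driven turnover in the endoplasmic reticulum had 0 members past 2-fold in any of the comparisons, with medians of 0.18 at day 0 and 0.16 at day 2 for knockdown over control. The 11 fatty acid synthesis genes, which SREBP1 drives, had 10 ratios above 0 at day 0, a median of 0.20, and 1 past 2-fold, Elovl6 (2.08-fold higher in knockdown cells). Their medians over time were 0.01 in knockdown and 0.25 in control cells, against -0.81 and -0.44 for the synthesis enzymes of cholesterol. Within them Scd1, the stearoyl-CoA desaturase, rose 3.00-fold in knockdown and 3.29-fold in control cells, while Fads2 fell 2.81-fold in knockdown cells and Me1 fell 2.26-fold in control cells.

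Among 12 genes of sterol transport and ester turnover the day 0 median was -0.44 for knockdown over control, with 9 of the 12 below 0, and at day 2 it was 0.01. Npc2, the lysosomal sterol-binding protein, read 4518 in knockdown and 6899 in control cells at day 0, and 4697 in knockdown and 8678 in control cells at day 2, and Lipa, the lysosomal acid lipase, read 336 and 210.2 in knockdown cells at days 0 and 2, against 546 and 295 in control cells. Both stood lower in knockdown cells at both days by less than 2-fold. They were picked after their values were seen, and at day 2, 7 of the 12 genes of the list had ratios above 0. Gramd1b, a sterol carrier at contacts of the endoplasmic reticulum with the plasma membrane, fell 3.36-fold in knockdown and 4.84-fold in control cells, whereas its relative Gramd1a rose 2.29-fold in knockdown cells and was 1.98-fold higher at day 2 in control cells. Nceh1, a cholesteryl ester hydrolase, was 1.93-fold lower at day 2 in knockdown cells and fell 3.57-fold in control cells. Star, a dim gene here, was higher by 2.04-fold in the knockdown culture of day 0 and rose 2.82-fold with time in control cells. Both folds of Star use the control day 0 array, on which the olfactory receptor genes were lowest.

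The 12 isoprenoid users, which attach or extend farnesyl and geranylgeranyl groups, had medians of -0.02 at day 0 and 0.13 at day 2 for knockdown over control, and of 0.18 in knockdown and 0.02 in control cells over time. Rabggtb rose 2.17-fold in knockdown and 2.09-fold in control cells, and Fntb and Rabggta fell 2.29-fold and 2.15-fold in control cells. Of 8 other liver X receptor targets and partners, 7 could be compared: Pltp, the phospholipid transfer protein, was lower by 2.02-fold in the knockdown culture of day 2 and fell 6.80-fold with time in knockdown and 6.0-fold in control cells, and Rxra, the partner of both receptors, rose 2.69-fold in knockdown and 3.05-fold in control cells. Abcg5 passed 2-fold in control cells over time at a dim level. Of 7 oxysterol and bile acid enzymes, Cyp27a1 was past 2-fold at day 0 and in the control time course and Ch25h in both time courses, all at signals of 5.51 or below, and Cyp7b1, which hydroxylates oxysterols, read 601 in knockdown and 346 in control cells at day 0, and 427 in knockdown and 400.3 in control cells at day 2. The 11 housekeeping genes had medians of 0.18 in knockdown and 0.29 in control cells over time, with 1 past 2-fold, Pgk1 at day 0.

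**Figure D5:**
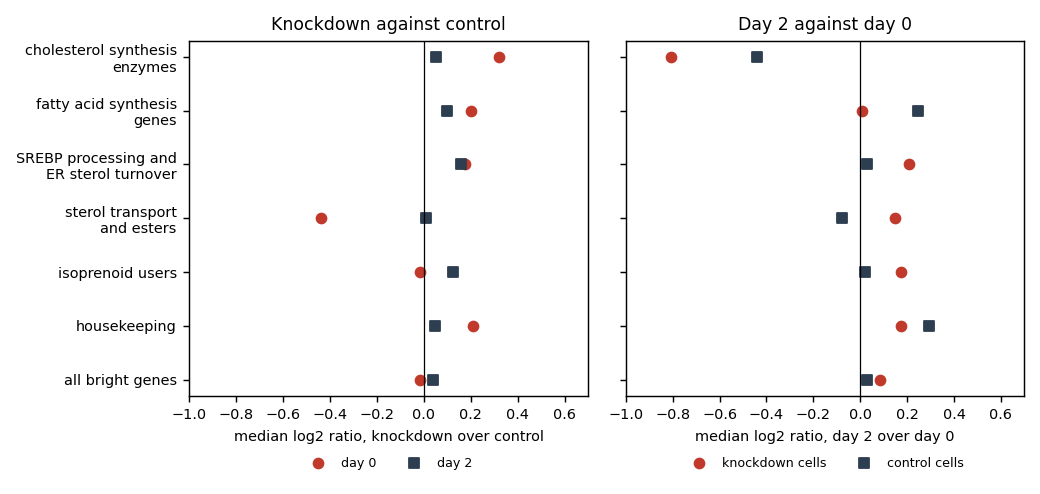
Median log2 ratio of each list of genes, knockdown over control on the left (day 0 red circles, day 2 dark squares) and day 2 over day 0 on the right (knockdown red circles, control dark squares). Of the lists plotted, the 19 cholesterol synthesis enzymes have the lowest medians over time, -0.81 in knockdown and -0.44 in control cells. At day 0 their median of knockdown over control was 0.32, with housekeeping genes at 0.21.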

How the data were processed

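Total RNA of 4 cultures was measured on 4 single-colour Agilent arrays, 1 per group. Per the file headers, the authors' deposited scanner files hold spot intensity values made with Feature Extraction 10.7.3.1, background-subtracted and, on 3 of the 4 arrays, multiplicatively detrended; the knockdown day 0 array was not detrended. The deposited intensities of the control day 0 array carry 3 significant digits and those of the other arrays 7. No spot was saturated. From these intensities the processed signal of each spot was taken on the log2 scale minus the array's 75th percentile, outlier spots were left out, repeat spots averaged, and 27650 of 55681 probes matched by accession to 20968 RefSeq genes, 20952 of them after outlier spots. The brightest probe stands for a gene. A probe not well above background on 1 side gives a bound.

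The 31 genes and all other lists were chosen with earlier results of these data known; all 31 are named, and the rule for other lists takes genes past 2-fold or the 2 with the largest differences of a list, of which only some are printed. Npc2, Lipa, Cyp7b1 and Adgre1 are outside that rule and were chosen after their values were seen. Bright genes as a background were added after the data were seen. The 5 comparisons have no test, because each group has 1 array, and the number of arrays limits the precision. The calculation recovered known folds, all larger than the call, that were planted in bright genes of simulated day 2 data. Changes in dim genes and differences of floor or slide between arrays were not simulated, so this checks the arithmetic only. There were 10 alternatives, including normexp with offset 50, quantile and cyclic loess normalization (limma 3.58.1, R 4.3.3); other steps used Python 3.11.15, numpy 2.4.6 and pandas 2.3.3. Promoter windows come from RefSeq (GRCm38.p6).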

Additional observations from a re-analysis of the deposited data

Results flagged for a closer look

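The Idi1 signal of knockdown cells lay above that of control cells at day 0 and below it at day 2: the log2 ratio at day 2 minus that at day 0 was -1.21. The same value, -1.21, is the log2 ratio of day 2 over day 0 in knockdown cells minus that in control cells, which had opposite signs. For Abcg1 the log2 ratio of day 2 over day 0 in knockdown cells, a bound, minus that in control cells was -3.47. By the rule for bounds the knockdown value could not be positive. At -0.14 it lay within the spot-to-spot SD of dim probes, 0.35, so its sign is not an observed fall. These differences were not tested, since each group has 1 array, and all use the control day 0 array, which lay alone on its slide.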

How the results depend on the processing

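No paired analysis was possible because each group has 1 array. Of the genes past 2-fold, 1 of 1 at day 0, 2 of 2 at day 2, 6 of 7 in the control time course, 8 of 12 in the knockdown time course and 1 of 1 in the difference between days stayed past it in each alternative that gave a value, and 0 changed direction. The exceptions were Fdft1 in both time courses and Nsdhl, Insig1 and Nr1h3 in knockdown cells. For knockdown over control at day 0, 3 genes were at least 2-fold higher with normexp, 2 with cyclic loess, 2 with the percentile taken over probes well above background on all arrays and 2 without detrending, against 1 as reported; 1 was at least 2-fold lower with quantile normalization, 2 with cyclic loess and 1 without detrending, against 0. The median of the 31 genes at day 0 was 0.10 with cyclic loess. At day 2, 0 genes were lower once Abcg1 was left out as not well above background on all arrays. In control cells over time 5 genes were lower with cyclic loess, and the median was -0.41 with quantile normalization, -0.47 with cyclic loess and -0.24 with the other percentile. In knockdown cells over time the median was -0.71 when all probes of a gene were used. With no filter on dim probes 2 genes were lower in the difference between days. At 1.5-fold, 8 genes were higher and 3 lower in knockdown cells at day 0, 3 higher and 3 lower at day 2, 8 lower over time in control cells, 16 lower over time in knockdown cells, and 1 higher and 5 lower in the difference between days. With cyclic loess the median of the per-gene shifts over all genes was -0.15 at day 0 and -0.20 in the control time course. With quantile normalization it was -0.14 in the control time course. Beyond these constructions, the cause was not tested. Signal near background limits Abcg1 and Srebf1, and 1 array per group limits all values.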
